A study of Mus musculus with 2 samples.

Results

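The expression of 10 genes of the FGF4-ERK pathway was followed in Dicer_KO mouse embryonic stem cells (mESCs). They are the ligand Fgf4, the receptors Fgfr1 and Fgfr2, the feedback inhibitors Spry2, Spry4, Spred1, Dusp4 and Dusp6, and the transcription factors Etv4 and Etv5. The genes were taken by their symbols from the 43629 genes listed in the count files, and all 10 had a row. The list was drawn up with earlier results of these data known, so that its counts below do not come from an unselected set. PolyA RNA of 2 libraries with the genotype Dicer knockout was sequenced by a reverse-stranded protocol, replicate 1 at passage 7 and replicate 2 at passage 4, both on the 129/Ola background. By the study's methods the cells came from the E14TG2a line, were cultured in serum with LIF unless stated otherwise, and were sorted as single cells after editing with paired CRISPR/Cas9 guides, so that a mutant line descends from 1 cell. The sample labels do not say which deletion of Dicer1 a library carries. Libraries of WT mESCs were not analysed here, and no value below measures an effect of losing Dicer. Each passage has 1 library. The paper made 2 independent mutant lines and reports RNA sequencing of both mutants, but the labels do not assign a line to a library. Line, passage and library preparation therefore cannot be told apart, and a difference between the libraries has no replicate check. No p-value was computed, and intervals cover counting error only.

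FGF4 is secreted by mESCs and acts on the same cells through FGF receptors, mainly FGFR1 and FGFR2. The receptors signal through adaptors to RAS, RAF, MEK and ERK, and this signal is known to prime mESCs for leaving the naive pluripotent state. ERK activity induces its own inhibitors, the Sprouty and SPRED proteins that act at the level of RAS and RAF and the DUSP phosphatases that dephosphorylate MAP kinases, together with the ETS factors ETV4 and ETV5. The mRNAs of these feedback genes are therefore widely used as a readout of the pathway.

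DICER makes the mature miRNAs, and the most abundant of those in mESCs belong to the miR-290 family. Its members with the shared AAGUGCU seed are shown, because a transcript of the pathway with a matching site is one that this family could bind in cells with DICER. The capitals mark the seed, bases 2 to 8, in the RefSeq sequences on GRCm38.p6.
mmu-miR-291a-3p: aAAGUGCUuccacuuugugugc
mmu-miR-294-3p: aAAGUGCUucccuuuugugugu
mmu-miR-295-3p: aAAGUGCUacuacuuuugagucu

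The reverse complement of this seed, AGCACTT, was searched on the transcript strand after the stop codon, in 1 GENCODE M21 transcript per gene. Of the 10 genes, 2 held a match, Fgf4 and Spred1, while 14.7% of 21037 genes held at least 1. In Fgf4 the match began at base 52 after the stop codon, within the window chr7:144862982-144863010 on the plus strand. In Spred1 it began at base 2932, within the window chr2:117180870-117180898 on the plus strand. Both windows lie in the exonic 3′ untranslated part and are shown with the match in capitals. A match describes the letters and does not show binding, and 2 of 10 is near the share in all genes.
Fgf4: ccctcaggaggAGCACTTtctctcgatgg
Spred1: ggaagaattgaAGCACTTtttccttacac

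The depth was similar, with 41710122 counts on genes in replicate 1 and 41566184 in replicate 2. Levels are given as TPM, each gene's share of all transcripts computed from the counts and the summed exon length of each gene, and as counts. For ratios, the counts of replicate 2 were scaled to those of replicate 1 by TMM, which assumes that most genes do not differ, and a pseudocount of 1 was added. Dicer1, the targeted gene, had 1343 counts in replicate 1 and 1510 in replicate 2, or 5.62 and 6.59 TPM. These counts include exons outside the deletions, so that they do not check the genotype without WT libraries. The pluripotency markers were high in both libraries, with Pou5f1 at 1217 and 1399 TPM and Nanog at 1485 and 855 TPM.

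Fgf4 and the ETS factor gene Etv5 were the most abundant of the 10 mRNAs in both libraries, and Fgfr2 and Dusp4 were the least abundant. The mean level was 429 ± 86.5 TPM for Fgf4 and 336 ± 86.6 TPM for Etv5 (SD, n = 2). Fgf4 ranked 231st among 42548 genes with a known length in replicate 1 and 338th in replicate 2, and Etv5 ranked 468th and 310th. The order of Fgf4 and Etv5 differed between the libraries, since Fgf4 was the higher in replicate 1 and Etv5 in replicate 2. Below them came a group whose ranges overlapped from neighbour to neighbour, namely Spry2 at 65.2 ± 48.5, Dusp6 at 61.4 ± 12.5, Spred1 at 44.3 ± 15.9, Spry4 at 33.2 ± 28.7 and Fgfr1 at 24.6 ± 3.13 TPM (SD, n = 2). Etv4 followed at 14.8 ± 8.0 TPM. Fgfr2 at 3.42 ± 1.60 TPM and Dusp4 at 3.34 ± 1.87 TPM overlapped each other and lay below all others. The ranges of Etv5 and Spry2, of Fgfr1 and Etv4, and of Etv4 and Fgfr2 did not overlap. All 10 genes had a mean of more than 100 scaled counts.

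**Figure D1:**
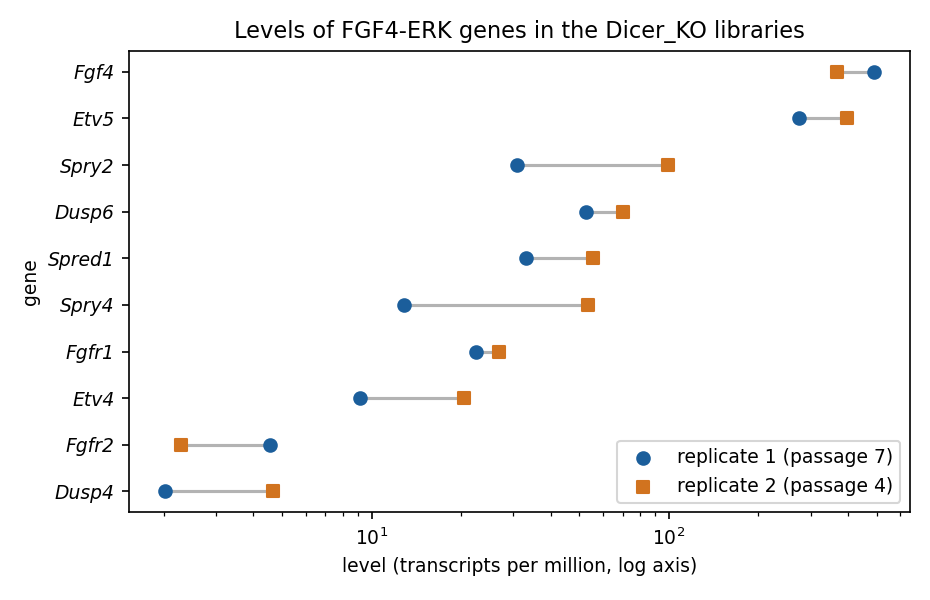
Level of each gene in TPM on a log axis, with replicate 1 as blue circles, replicate 2 as orange squares and a line between them, ordered by the mean of both libraries. The squares lie to the right of the circles for 8 of the 10 genes, and Fgf4 and Fgfr2 show the opposite order.

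All 7 feedback and ETS factor genes were lower in replicate 1 than in replicate 2, by 1.39-fold for Dusp6 to 4.33-fold for Spry4, while Fgf4 and Fgfr2 were higher in replicate 1. The members beyond 2-fold were Spry4, Spry2, Dusp4 and Etv4, all lower in replicate 1, which makes 4 of the 10 genes. Among all 17816 genes that averaged 10 scaled counts or more, 7.26% were more than 2-fold lower in replicate 1, and among the 13077 that averaged 100 or more, 4.25%. None of the 10 was more than 2-fold higher in replicate 1, against 14.2% and 9.96% of genes at these minimums. In all, 8 of the 10 genes were lower in replicate 1 by any amount, against 48.8% of all genes. The median log2 ratio of replicate 1 over replicate 2 was -0.70 for the 10 genes and -1.22 for the 7 feedback and ETS factor genes, and it was 0.02 for all genes. The 95% counting interval lay below 0 for the 8 genes that were lower and above 0 for the 2 that were higher. Such intervals are narrow at high counts, and the share of all genes whose interval leaves out 0 was not computed. The 10 genes lie on 8 chromosomes, whose median log2 ratios ranged from -0.08 to 0.08.

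**Figure D2:**
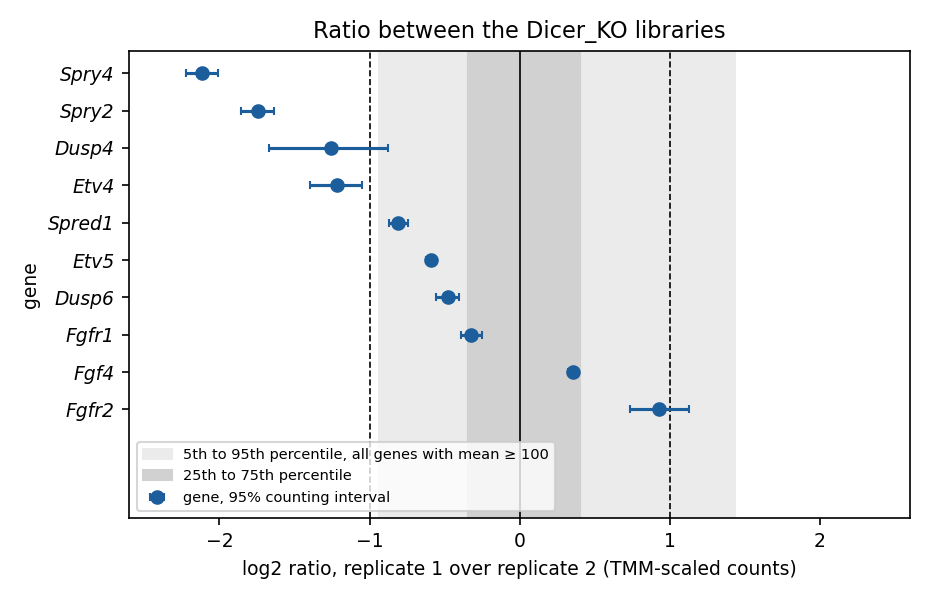
Log2 ratio of TMM-scaled counts, replicate 1 over replicate 2, for each gene with its 95% counting interval, over shaded bands for the middle of all genes averaging 100 counts or more (25th to 75th percentile, -0.35 to 0.41, and 5th to 95th, -0.94 to 1.44); dashed lines mark 2-fold. Spry4, Spry2, Dusp4 and Etv4 lie left of the lower dashed line, and only Fgf4 and Fgfr2 lie right of 0.

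The ligand gene Fgf4 (ENSMUSG00000050917, chr7:144847367-144865243, plus strand) had 22363 counts in replicate 1 and 16078 in replicate 2. Its level was 490 and 368 TPM. Scaled counts were 1.28-fold higher in replicate 1 (95% interval 1.25 to 1.30), and 72.5% of genes averaging 100 counts or more had a lower ratio. Fgf4 is a known target of OCT4 and SOX2 in mESCs. The level of Fgf4 was 15.9 times that of Spry2 in replicate 1 and 3.70 times in replicate 2, and 38.1 and 6.88 times that of Spry4. These ratios within a library do not depend on the scaling between libraries.

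The receptor genes differed in level and in direction. Fgfr1 (ENSMUSG00000031565, chr8:25513654-25575718, plus strand), the main FGF receptor of the epiblast, had 3155 counts in replicate 1 and 3620 in replicate 2, or 22.4 and 26.8 TPM. It was 1.25-fold lower in replicate 1 (95% interval 1.19 to 1.31). Fgfr2 (ENSMUSG00000030849, chr7:130162451-133123350, minus strand), an FGF receptor of trophectoderm and primitive endoderm, had 671 and 323 counts, or 4.55 and 2.29 TPM. It was 1.91-fold higher in replicate 1 (95% interval 1.67 to 2.19), so that its interval reached past 2-fold. The level of Fgfr1 was 4.92 times that of Fgfr2 in replicate 1 and 11.7 times in replicate 2. In GENCODE M21, 3.04% of the exonic bases of Fgfr2 overlap those of Ctbp2 on the same strand, and 1.66% of those of Fgfr1 overlap a gene on the opposite strand. The authors ignored reads on regions shared by genes, but in another annotation release, so the bases left out may differ. Both receptors have many annotated transcripts, 19 for Fgfr1 and 27 for Fgfr2, and with the length of the longest transcript their mean levels were 39.1 and 6.48 TPM.

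The Sprouty genes showed the largest differences. Spry4 (ENSMUSG00000024427, chr18:38586247-38601415, minus strand), whose protein restrains RAS-ERK signalling downstream of receptor tyrosine kinases, had 874 counts in replicate 1 and 3479 in replicate 2, or 12.9 and 53.5 TPM. It was 4.33-fold lower in replicate 1 (95% interval 4.02 to 4.67), and only 78 of the 13077 genes averaging 100 counts or more had a lower ratio. Spry2 (ENSMUSG00000022114, chr14:105891947-105896819, minus strand), a paralog with a similar role, had 921 and 2838 counts, or 30.9 and 99.4 TPM. It was 3.35-fold lower in replicate 1 (95% interval 3.11 to 3.62), with 154 genes below it. The counting intervals of the Spry4 and Spry2 ratios did not overlap. Spry2 was the more abundant per length in both libraries, by 2.4 times in replicate 1 and 1.86 times in replicate 2.

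Spred1 (ENSMUSG00000027351, chr2:117121374-117182279, plus strand) codes for a Sprouty-related protein that recruits the RAS GTPase-activating protein neurofibromin to the membrane. It had 3204 counts in replicate 1 and 5159 in replicate 2, or 33.1 and 55.6 TPM. It was 1.75-fold lower in replicate 1 (95% interval 1.68 to 1.83), a smaller difference than those of the Sprouty genes, and their intervals did not overlap. Spred1 and Fgf4, the genes with a seed match, lay on opposite sides of 0. Both libraries have the genotype Dicer knockout, so their ratio does not test an effect of the match.

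The phosphatase genes differed widely in level. Dusp6 (ENSMUSG00000019960, chr10:99263231-99267489, plus strand) codes for a cytoplasmic phosphatase selective for ERK and had 2348 counts in replicate 1 and 3007 in replicate 2, or 52.5 and 70.2 TPM. It was 1.39-fold lower in replicate 1 (95% interval 1.32 to 1.47), the smallest difference among the feedback genes. Dusp4 (ENSMUSG00000031530, chr8:34807297-34819894, plus strand), whose product acts in the nucleus, had 79 and 175 counts, or 2.02 and 4.67 TPM. It was 2.39-fold lower in replicate 1, but with the fewest counts of the 10 genes its 95% interval was wide, from 1.84 to 3.19, and it included 2-fold. The level of Dusp6 was 26.0 times that of Dusp4 in replicate 1 and 15 times in replicate 2.

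Etv4 (ENSMUSG00000017724, chr11:101769742-101785371, minus strand) and Etv5 (ENSMUSG00000013089, chr16:22381309-22439719, minus strand) code for related ETS factors of the PEA3 group. Etv4 had 405 counts in replicate 1 and 868 in replicate 2, or 9.14 and 20.4 TPM, and was 2.33-fold lower in replicate 1 (95% interval 2.07 to 2.63). Etv5 had 16090 and 22284 counts, or 275 and 397 TPM, and was 1.51-fold lower in replicate 1 (95% interval 1.48 to 1.54). The difference of Etv4 was the larger, with no overlap of the intervals. Etv5 was 30.1 times as abundant per length as Etv4 in replicate 1 and 19.4 times in replicate 2. In the order of ratios, only Spry2 and Dusp4 and then Dusp4 and Etv4 were neighbours whose intervals overlapped.

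The promoters of Spry2 and Fgf4 are shown because these genes lay on opposite sides of 0. Each covers 300 bases around the start of the RefSeq gene on GRCm38.p6, most of them upstream, read along the gene's strand. The letters CCGGAA, which ETS factors are known to bind, were searched on both strands. Promoters were found for 6 of the 10 genes, Fgf4, Fgfr2, Spry2, Spred1, Dusp6 and Etv5, with 2 for Etv5. Of these 7 promoters, 1 held the letters, that of Spry2, against 14.9% of all 32851 promoters of the same length. The match is in capitals, begins at base 284 of the window, chr14:105896770-105897069 on the minus strand, and lies past the start of the gene. The window of Fgf4, chr7:144861136-144861435 on the plus strand, held no match. The promoters of Spred1, Dusp6 and Etv5, which were lower in replicate 1 like Spry2, held no match. Nor did that of Fgfr2, which was higher. The 1 of 7 is near the share of all promoters, and the search says nothing of binding by ETV4 or ETV5.
Spry2: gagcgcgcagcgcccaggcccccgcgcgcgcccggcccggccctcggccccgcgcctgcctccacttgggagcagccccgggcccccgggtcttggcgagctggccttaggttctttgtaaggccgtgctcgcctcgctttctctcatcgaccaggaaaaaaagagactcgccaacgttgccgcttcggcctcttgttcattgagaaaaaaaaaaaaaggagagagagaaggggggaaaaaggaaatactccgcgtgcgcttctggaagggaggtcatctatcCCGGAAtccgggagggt
Fgf4: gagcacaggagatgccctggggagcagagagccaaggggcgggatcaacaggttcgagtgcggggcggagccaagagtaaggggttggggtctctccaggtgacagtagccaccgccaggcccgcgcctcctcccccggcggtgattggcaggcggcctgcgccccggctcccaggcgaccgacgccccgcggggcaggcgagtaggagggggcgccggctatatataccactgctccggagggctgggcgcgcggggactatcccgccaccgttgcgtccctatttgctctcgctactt

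Other FGF ligand genes were low and moved in both directions. Of 21 such genes, 12 averaged 10 scaled counts or more, the minimum for a gene to be called measured. Of these, 4 were more than 2-fold lower and 2 more than 2-fold higher in replicate 1, with a median log2 ratio of -0.01. The shares of all genes were 7.26% lower and 14.2% higher. Over the 4 that averaged 100 counts or more, Fgf1, Fgf13, Fgf15 and Fgf17, the median was -1.17, lower than the -0.70 of the 10 genes. The summed level of the 21 genes was 40.3 TPM in replicate 1 and 46.2 TPM in replicate 2, far below Fgf4 alone. Fgf15, an endocrine FGF that is also made in the early embryo, had 195 and 784 counts (log2 ratio -2.12), and Fgf17 had 49 and 249 (-2.44). Fgf21, an endocrine FGF induced by stress in many cell types, had 190 counts in replicate 1 and 7 in replicate 2 (4.47). Fgf11 had 111 and 34 counts (1.56), and Fgf1 had 728 and 348 (0.94).

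Genes of other FGF receptors, coreceptors and heparan sulfate synthesis showed 3 of 16 measured genes more than 2-fold higher in replicate 1 and 1 more than 2-fold lower, with a median log2 ratio of 0.17. These shares are near those of all genes, 14.2% higher and 7.26% lower. Sdc4, a heparan sulfate proteoglycan of the cell surface, was the most abundant, at 324 and 134 TPM (log2 ratio 1.22). Hs6st1, which adds sulfate to heparan chains, was at 118 and 83.9 TPM (0.43), and the glypican gene Gpc4 was at 43.9 and 78.0 TPM (-0.89). Ndst2 had a log2 ratio of 1.09 from 807 and 347 counts. Klb, the coreceptor of endocrine FGFs, had -1.95 from 121 and 432 counts.

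The adaptors and the RAS-ERK cascade lay mostly within 2-fold. Of 25 genes, 24 were within 2-fold, with a median log2 ratio of -0.04 and a range from -1.01 to 0.94. Of all genes, 7.26% were more than 2-fold lower in replicate 1 and 14.2% more than 2-fold higher. Mapk3, which codes for an ERK kinase, was among the most abundant, at 195 and 132 TPM (log2 ratio 0.50). Gab1, a docking protein downstream of receptor tyrosine kinases, was at 117 and 226 TPM, and its log2 ratio of -1.01 lay at the 2-fold limit, with a 95% interval from -1.05 to -0.97. Ksr1, a scaffold of RAF, MEK and ERK, had the highest ratio, 0.94, from 1505 and 719 counts. Their summed level was 1459 TPM in replicate 1 and 1462 TPM in replicate 2.

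Other feedback inhibitors lay on both sides of 0. Of 19 measured genes, 11 were lower and 8 higher in replicate 1, with a median log2 ratio of -0.10, and 17 were within 2-fold. Of all genes, 48.8% were lower by any amount, 7.26% more than 2-fold lower and 14.2% more than 2-fold higher. The paralogs of the Sprouty and SPRED genes, picked after their values were seen, were Spry1 with 737 and 789 counts (log2 ratio -0.22), Spry3 with 6 and 8, Spred2 with 4346 and 4277 (-0.10) and Spred3 with 161 and 143 (0.05). Dusp9, an ERK phosphatase that is high in mESCs, was at 121 and 44.0 TPM (1.4), opposite in direction to Dusp4 and Dusp6. Dusp1 was at 104 and 79.5 TPM (0.33) and Pebp1, which binds RAF, at 115 and 107 TPM (0.05). Cbl, a ubiquitin ligase for receptors, had the lowest ratio of those averaging 50 counts or more, -0.80, and the other gene beyond 2-fold, Dusp2, had 20 and 38 counts.

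Other transcriptional outputs of ERK lay on both sides of 0, with 3 of 17 more than 2-fold lower and 3 more than 2-fold higher in replicate 1 and a median of -0.27, beside 7.26% and 14.2% of all genes. Etv1, the remaining PEA3 factor, had 259 counts in replicate 1 and 1971 in replicate 2 (log2 ratio -3.05), a larger difference than that of any of the 10 genes. Myc had 128 and 569 counts (-2.27) and Egr2 had 34 and 80 (-1.33). The immediate early genes Fos, with 2838 and 877 counts (1.57), and Ier3, with 822 and 163 (2.21), were higher in replicate 1, as was Ets1, with 103 and 17 (2.41). Egr1, an immediate early gene as well, was at 99.5 and 145 TPM (-0.61), Ccnd1 at 111 and 177 TPM (-0.73) and Ier2 at 222 and 139 TPM (0.62).

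**Figure D3:**
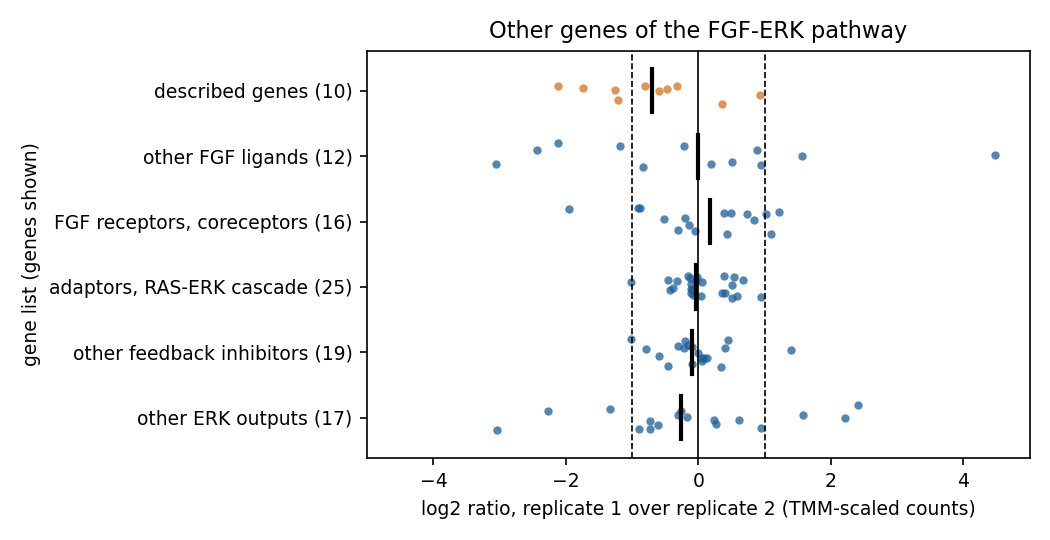
Log2 ratio of TMM-scaled counts, replicate 1 over replicate 2, for each gene averaging 10 scaled counts or more, by list; black bars mark list medians, dashed lines mark 2-fold, the numbers in brackets count the genes, and vertical scatter within a list carries no value. The median of the 10 genes (orange), -0.70, lies left of those of the other lists, which range from -0.27 to 0.17, but at a minimum of 100 counts the other FGF ligands lie further left, at -1.17.

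Markers of several cell states differed between the libraries too, and their part in the ratios above was not tested. In a bulk sample, fewer cells of a type and less RNA per cell cannot be told apart. Of 7 measured markers of primed epiblast, 6 were lower in replicate 1, against 48.8% of all genes, with a median log2 ratio of -1.19. The summed level of the 8 listed was 160 TPM in replicate 1 and 426 TPM in replicate 2. Dnmt3b, a DNA methyltransferase, was at 75.4 and 257 TPM (-1.83), the homeobox gene Otx2 at 41.7 and 91.2 TPM (-1.19), and Lef1 had 83 and 535 counts (-2.80). All 8 measured trophectoderm markers were more than 2-fold higher in replicate 1, against 14.2% of all genes, with a median of 2.44. The summed level of the 9 listed was 749 TPM against 126 TPM. Krt18 was at 349 and 44.8 TPM, Krt8 at 286 and 51.2 TPM and Tfap2c at 71.2 and 26.1 TPM, whereas Cdx2, a defining factor, had 6 counts and 1 count. Genes on chromosome 15, which holds Krt7, Krt8 and Krt18, had a median log2 ratio of 0.59. The medians of the other autosomes ranged from -0.08 to 0.08, so that chromosome 15 stood apart. The 5 measured trophectoderm markers on other chromosomes were also more than 2-fold higher in replicate 1. The part of chromosome 15 in the marker ratios was not tested.

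The pluripotency markers had a median log2 ratio of 0.04 over 13 genes, of which 11 were within 2-fold. Of all genes, 7.26% were more than 2-fold lower in replicate 1 and 14.2% more than 2-fold higher. Dppa5a had 1.11 and Lin28a had -1.64. Feeder and fibroblast markers summed to 23.1 and 16.9 TPM, mostly from Thy1 at 19.2 and 15.2 TPM, while Pdgfrb had 285 and 91 counts (log2 ratio 1.52), Col1a1 had 20 and 18 and Dcn had 0 and 19, and of the 8 listed 3 were at 0 in replicate 1 and 2 in replicate 2. Primitive endoderm markers summed to 20.9 and 19.7 TPM with no marker at 0, but their median log2 ratio was 0.55 over 6 measured genes. Of these 6, 2 were more than 2-fold higher in replicate 1, against 14.2% of all genes. These were Gata6 with 16 and 5 counts, close to the minimum of 10 scaled counts, and Dab2 with 52 and 17. Dab2 lies on chromosome 15, whose genes had a median log2 ratio of 0.59. Gata4 was at 10.5 and 5.96 TPM (0.76) and Lama1, the other abundant marker, at 8.65 and 12.6 TPM (-0.61). Neuroectoderm markers summed to 45.6 and 93.7 TPM, and the difference in the sum lay mostly in Tubb3 at 21.0 and 64.7 TPM. Of the 5 measured neuroectoderm markers, however, 4 were lower in replicate 1, against 48.8% of all genes, with a median log2 ratio of -0.70. Nes was at 19.3 and 21.1 TPM (-0.19), Sox1 had 101 and 87 counts (0.09) and Neurog2 was at 0 in replicate 1 and 1 count in replicate 2. Mesoderm markers summed to 3.50 and 5.29 TPM, with Kdr at 90 and 353 counts (-2.08), Tbx6 at 48 and 30 (0.54) and T at 3 and 2.

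**Figure D4:**
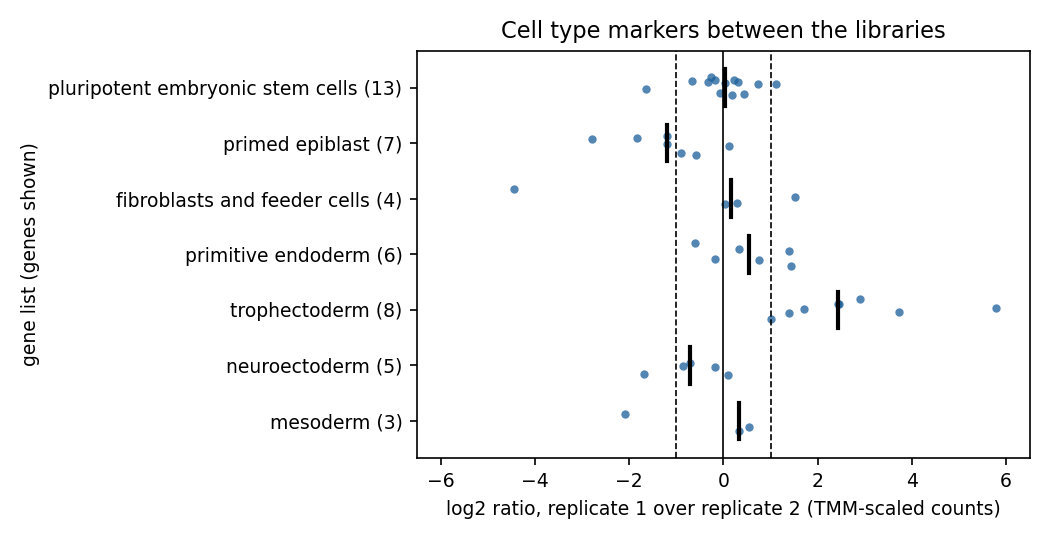
Log2 ratio of TMM-scaled counts, replicate 1 over replicate 2, for cell type markers averaging 10 scaled counts or more, by list; black bars mark list medians, dashed lines mark 2-fold, the numbers in brackets count the genes, and vertical scatter carries no value. The trophectoderm markers lie right of 2-fold (median 2.44), 6 of the 7 primed epiblast markers lie left of 0 (median -1.19), and the pluripotency markers centre near 0 (median 0.04).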

How the data were processed

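RNA of 2 Dicer_KO libraries was sequenced on an Illumina sequencer. The authors trimmed the reads, aligned them to mm10 with STAR (2.4.2a per the labels) and assigned them to Ensembl genes by featureCounts (1.4.5-p1), ignoring those on regions shared by genes. The deposited files hold raw counts per gene, with no normalization. Whether strand was used and how reads with several alignments were counted is not given in the sources used here.

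Symbols, positions and exon lengths came from GENCODE M21 (GRCm38, the same build), in which 42548 of 43629 identifiers had an entry. The authors counted reads on another annotation release, so lengths and overlaps may differ from theirs. TPM was computed over those genes. TMM factors came from edgeR 4.0.16 (R 4.3.3), with DESeq2 1.42.0 size factors, total and raw counts, a pseudocount of 0.1, other count minimums and folds, and the longest transcript as alternatives. Ratios carry exact 95% Clopper-Pearson intervals from the share of the 2 counts (scipy 1.17.1). A count of 3, the floor, is 0.0719 and 0.0722 CPM. As the libraries share 1 condition, no model across conditions was fitted. Scaling and intervals were tested on simulated data. Those data varied by counting error only and had as many genes raised as lowered, unlike the 2 libraries here.

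The genes, lists and motifs were chosen with earlier results of these data known. From each list, the 3 genes with the highest level, those with the highest and lowest ratio and those beyond 2-fold (mean of at least 50 counts) could be named. Some marker genes were named only for their counts near 0. Of the genes that this rule covers, 1 is not reported here.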

Additional observations from a re-analysis of the deposited data

How the results depend on the processing

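No paired analysis was possible because the series holds 1 condition. All 40 log2 ratios of the 10 genes under other scalings and a pseudocount of 0.1 kept their sign, although 14 of them, with total or raw counts, moved outside the counting interval. The kept signs check little, since a scaling shifts all genes nearly alike and the ratio nearest 0 was -0.32 (Fgfr1). Total counts put the median of all genes at 0.14 and raw counts at 0.14, against 0.02 with TMM, and values there are to be read against that shift. Without either replicate, mean levels moved by less than 1 SD, as they must with 2 libraries. Members more than 2-fold lower numbered 4, and 1 beyond 4-fold. Members more than 2-fold higher numbered 0, and 1 (Fgfr2) with total counts, with raw counts or at 1.5-fold. All genes more than 2-fold lower numbered 1293, and 3888 with no filter, 556 at a mean of at least 100, 2893 at 1.5-fold and 280 at 4-fold. Those higher numbered 2533, and 4050, 1303, 4180 and 741 in the same order. Of the FGF ligands, 4 lower and 2 higher became 2 and 0 at a mean of at least 100, and 4 were higher with no filter. In the cascade, 1 lower and 0 higher became 0 and 1 with total or raw counts. Of the other feedback inhibitors, the 1 lower became 0 with total counts, raw counts or a mean of at least 100. The median of the FGF ligands went from -0.01 to -1.17 at a mean of at least 100, where 4 genes were left, and to 0.11 with total or raw counts. That of the FGF receptors and coreceptors went from 0.17 to -0.05 at a mean of at least 100, and that of the 10 genes lay between -0.70 and -0.58. With total counts the medians of the cascade and of the other feedback inhibitors went from -0.04 and -0.10 to 0.08 and 0.02. For these shifts, the cause was not tested.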
